A study of Mus musculus with 24 samples.

Results

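The genes described here are 29 markers of podocytes, mesangial cells, pericytes and smooth muscle, out of 17736 genes tested in mouse kidney. They were listed by name, with no measured value in the rule, but were chosen with earlier results of these data known. They were matched to array probes, and fall into 15 podocyte genes, 7 mesangial and pericyte genes and 7 contractile genes. Total RNA of kidney tissue was measured on 24 single-colour arrays, each from a separate male Crl:CD1(ICR) mouse. The DKD+enarodustat group (n = 9) received alloxan, a toxin of insulin-producing cells, at 90 mg/kg into a vein 3 days ahead of grouping, and then feed holding 0.01% enarodustat. The DKD group (n = 9, for diabetic kidney disease) received the same dose of alloxan and plain feed, and was matched to the enarodustat mice on blood glucose and body weight. The Sham group (n = 6) received vehicle in place of alloxan, and plain feed. All kidneys were taken 16 days after grouping. Enarodustat stabilises hypoxia-inducible factor (HIF), a transcription factor that is degraded when oxygen is plentiful. The diabetes is chemically induced in an outbred stock, the tissue is kidney and not isolated glomeruli, and a lower level in such tissue can mean fewer cells of a type or less RNA per cell, which cannot be told apart.

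A level is the log2 signal of a probe minus that of the array's 75th percentile, so levels order samples within a gene and not genes against each other. Changes are log2 differences ± SE from 1 limma fit over all arrays, and a gene passed where its p, adjusted over all 17736 genes, was under 0.05. The 75th percentile lay at signals of 187 to 388, and 37716 to 44732 spots per array were well above background. Each of the 3 slides carried arrays of every group, but row 2 of the slides held all DKD+enarodustat arrays and 3 of the DKD arrays, and row 1 held the other 6 DKD arrays and all Sham arrays. Row and group can therefore not be told apart between DKD+enarodustat and Sham except through the DKD arrays. DKD+enarodustat 3 carried a quality warning from the scanner software and stayed in. All 29 genes matched a probe, and the probe used for each was well above background on all 24 arrays, so the defining markers of each cell type were present in every kidney.

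Podocytes are the epithelial cells that cover the outside of the glomerular capillaries. Their foot processes interlock across a slit diaphragm, which holds back plasma proteins, and rest on an actin skeleton. Mesangial cells hold the capillary loops together from within, and pericytes and smooth muscle cells wrap the vessels outside. These mural cells depend on platelet-derived growth factor (PDGF) signals from the endothelium and can contract. Loss of podocytes and activation of mesangial cells are known features of diabetic kidney disease.

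A minority of the 29 genes passed in each comparison, and against Sham the share was close to that of all genes. Between DKD and Sham kidneys, 4 of 29 genes passed (13.8%, against 11.6% of all genes tested). Cdkn1c, Cspg4 and Gata3 rose and Npr3 fell, where 5.47% of all genes rose and 6.13% fell. Between DKD+enarodustat and DKD kidneys only Itga8 passed, a rise, which is 3.45% of the 29 genes against 0.716% of all genes tested (0.609% rose and 0.107% fell). Between DKD+enarodustat and Sham kidneys, 4 genes passed (13.8%, against 15.5% of all genes): Cnn1, Cdkn1c and Rgs5 rose and Npr3 fell. Of all genes, 8.74% rose and 6.75% fell in that comparison. The DKD arrays enter both of the first comparisons, and the Sham arrays enter the first and the last, so the 3 sets of changes are not independent.

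**Figure D1:**
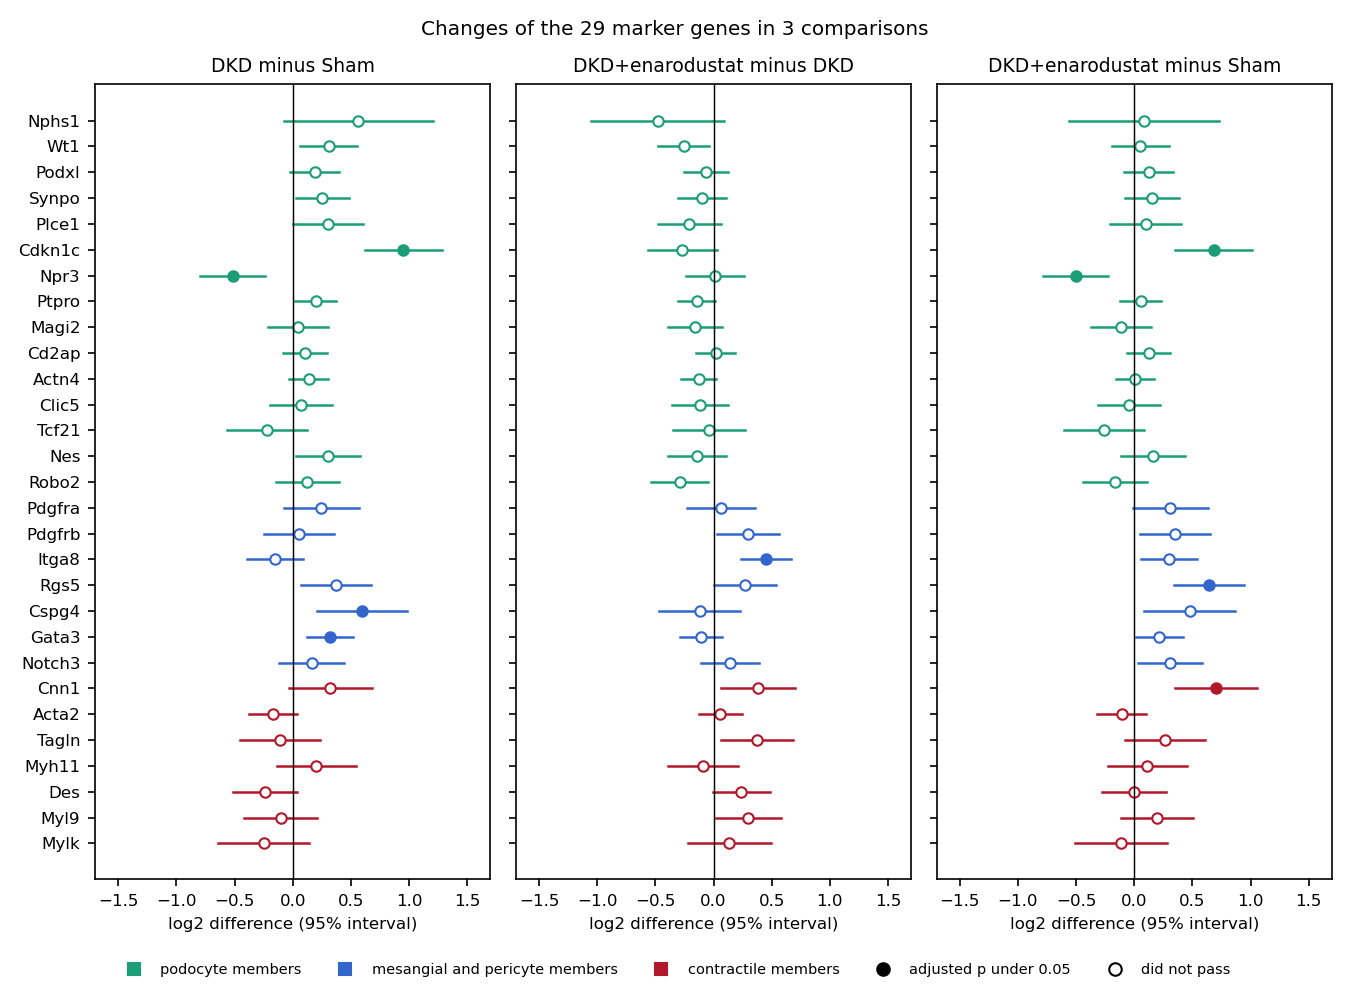
Change of each of the 29 genes (rows) in 3 comparisons (panels) as a log2 difference with its 95% interval; filled points passed at an adjusted p under 0.05, and colour gives the class. Filled points stand at 4 genes for DKD minus Sham, at Itga8 alone for DKD+enarodustat minus DKD, and at 4 genes for DKD+enarodustat minus Sham.

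Cdkn1c, a cyclin-dependent kinase inhibitor that mature podocytes carry, had the largest change of the 29 genes in DKD against Sham. Its level was 2.89 to 3.65 (median 3.20) in DKD+enarodustat kidneys, 2.93 to 4.27 (median 3.45) in DKD kidneys and 2.37 to 2.68 (median 2.53) in Sham kidneys. Every array of either alloxan group lay above every Sham array. Among all genes tested, 3.4% separated DKD from Sham without overlap, and 4.94% separated DKD+enarodustat from Sham. The change was 0.95 ± 0.16 for DKD minus Sham (1.93-fold, adjusted p = 0.000436) and 0.68 ± 0.16 for DKD+enarodustat minus Sham (1.60-fold, adjusted p = 0.00547). Within slides 1, 2 and 3 the DKD minus Sham change was 1.09, 0.65 and 1.11. DKD+enarodustat minus DKD gave -0.27 ± 0.14, with overlapping groups (adjusted p = 0.528). With row on the slide as a term, the DKD+enarodustat minus Sham change was 0.28 and did not pass (adjusted p = 0.503).

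Npr3, the clearance receptor that removes natriuretic peptides, was the podocyte gene that fell. Its level was -1.45 to -0.71 (median -1.05) in DKD+enarodustat kidneys, -1.68 to -0.57 (median -1.01) in DKD kidneys and -0.75 to -0.30 (median -0.55) in Sham kidneys. The alloxan groups lay together and below Sham, with some overlap. It fell by 0.51 ± 0.13 in DKD against Sham (adjusted p = 0.0139) and by 0.50 ± 0.13 in DKD+enarodustat against Sham (adjusted p = 0.0131). Within slides the changes ran from -0.74 to -0.38 for DKD minus Sham and from -0.62 to -0.38 for DKD+enarodustat minus Sham. A dimmer Npr3 probe, above background on 19 arrays, gave -0.40 and -0.41, and with the mean of both probes neither call remained (adjusted p = 0.0872 and 0.0698). With the row term the DKD+enarodustat minus Sham change was -0.56 (adjusted p = 0.145).

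The structural genes of the slit diaphragm did not pass in any comparison. Nphs1, which encodes nephrin, the protein that bridges neighbouring foot processes, was measured at -2.68 to -0.08 (median -0.87) in DKD+enarodustat kidneys, -1.50 to 0.13 (median -0.65) in DKD kidneys and -1.60 to -0.87 (median -1.25) in Sham kidneys. All 3 groups overlapped, and the spread was widest in DKD+enarodustat, with an SD of 0.83 against 0.52 in DKD and 0.29 in Sham. The change was 0.56 ± 0.31 for DKD minus Sham (95% interval -0.08 to 1.21, adjusted p = 0.273) and -0.48 ± 0.28 for DKD+enarodustat minus DKD (-1.05 to 0.09, adjusted p = 0.570). A second Nphs1 probe gave 0.66 and -0.31. Magi2, a scaffold under the slit diaphragm, averaged 0.21 ± 0.27 in DKD+enarodustat, 0.37 ± 0.26 in DKD and 0.33 ± 0.09 in Sham (SD), and its second probe had the opposite sign for DKD minus Sham (-0.17 against 0.05). Cd2ap, an adapter between nephrin and actin, averaged 2.52 ± 0.19 in DKD+enarodustat, 2.50 ± 0.17 in DKD and 2.40 ± 0.06 in Sham, and its 3 changes had intervals within -0.15 and 0.31. Its probes differed in sign for DKD+enarodustat minus DKD (0.02 for the probe used, against -0.09 and -0.14). Robo2, a guidance receptor that binds at the diaphragm, averaged -2.26 ± 0.23 in DKD+enarodustat, -1.96 ± 0.31 in DKD and -2.09 ± 0.16 in Sham. All 9 of its DKD+enarodustat arrays lay below the DKD mean, but the change of -0.29 ± 0.12 did not pass (adjusted p = 0.337).

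The membrane and signalling genes of podocytes did not pass either. Podxl, the negatively charged coat protein podocalyxin, averaged -0.32 ± 0.23 in DKD+enarodustat, -0.26 ± 0.14 in DKD and -0.45 ± 0.16 in Sham kidneys (SD). Ptpro, a receptor tyrosine phosphatase of the foot process, averaged -0.33 ± 0.21 in DKD+enarodustat, -0.19 ± 0.11 in DKD and -0.39 ± 0.07 in Sham. All 9 DKD arrays of Ptpro lay above the Sham mean, with a change of 0.20 ± 0.09 (adjusted p = 0.140). Plce1, a phospholipase C needed for podocyte maturation, averaged -3.14 ± 0.24 in DKD+enarodustat, -2.93 ± 0.33 in DKD and -3.23 ± 0.25 in Sham. Clic5, which ties the membrane to the skeleton, averaged 2.58 ± 0.28 in DKD+enarodustat, 2.70 ± 0.19 in DKD and 2.63 ± 0.25 in Sham.

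Wt1 and Tcf21 are the transcription factors among the podocyte genes, and neither passed. Wt1, which keeps podocytes differentiated, lay at -0.44 to 0.32 (median -0.14) in DKD+enarodustat kidneys, -0.09 to 0.51 (median 0.11) in DKD kidneys and -0.31 to 0.05 (median -0.17) in Sham kidneys. All 9 DKD arrays lay above the Sham mean and 8 of 9 DKD+enarodustat arrays lay below the DKD mean. The changes were 0.31 ± 0.12 (adjusted p = 0.0978) and -0.26 ± 0.11 (adjusted p = 0.354). Tcf21, which stromal cells also carry, averaged -1.27 ± 0.32 in DKD+enarodustat, -1.23 ± 0.37 in DKD and -1.01 ± 0.23 in Sham. Its DKD+enarodustat minus Sham change of -0.26 passed with row on the slide as a term (-0.88, adjusted p = 0.0326).

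The cytoskeletal genes of podocytes had means above Sham in DKD and did not pass. Synpo, the actin-associated protein synaptopodin, averaged -0.03 ± 0.25 in DKD+enarodustat, 0.07 ± 0.20 in DKD and -0.19 ± 0.11 in Sham kidneys (SD). Its DKD minus Sham change was 0.26 ± 0.11 (adjusted p = 0.151), and its other probes gave -0.31 and 0.10, so the probes disagreed. Nes, the intermediate filament nestin, averaged 0.64 ± 0.19 in DKD+enarodustat, 0.78 ± 0.34 in DKD and 0.48 ± 0.18 in Sham. Its change of 0.30 ± 0.13 for DKD minus Sham (adjusted p = 0.156) passed when DKD 9 was left out (0.39, adjusted p = 0.0242). Actn4, an actin cross-linker, averaged 4.13 ± 0.19 in DKD+enarodustat, 4.26 ± 0.11 in DKD and 4.12 ± 0.04 in Sham. For DKD minus Sham, 13 of the 15 podocyte genes had a change above 0 (median 0.19; 12 to 13 of 15 in 14 other settings of the processing and 11 to 12 within single slides), where the median of all genes was -0.01. For DKD+enarodustat minus DKD, 13 of 15 had a change below 0 (median -0.14), where the median of all genes was 0.00.

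Of 30 other podocyte and glomerular filter genes, 2 passed for DKD minus Sham and 3 for DKD+enarodustat minus Sham, where 11.6% and 15.5% of all genes did. For DKD minus Sham, Anln, an actin-binding protein, rose by 0.94 ± 0.27 (adjusted p = 0.0246) and Itgb1, an integrin chain that anchors podocytes to their membrane, fell by 0.27 ± 0.07 (adjusted p = 0.0178). The other 28 genes did not pass, 21 of the 30 changes were above 0, and the median was 0.14. For DKD+enarodustat minus DKD 0 of 30 passed under limma (4 at an unadjusted p under 0.05), with a median of -0.02. For DKD+enarodustat minus Sham, 3 of 30 rose: Anln by 1.62 ± 0.27, the actin regulator Inf2 by 0.61 ± 0.16 and the motor protein Myo1e by 0.32 ± 0.10 (adjusted p = 0.000344, 0.0104 and 0.0351).

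Mesangial and pericyte genes held the call between the diabetic groups. Itga8, the integrin chain of mesangial cells, was measured at -0.56 to 0.21 (median -0.14) in DKD+enarodustat kidneys, -1.08 to -0.36 (median -0.55) in DKD kidneys and -0.61 to -0.23 (median -0.45) in Sham kidneys. All 9 DKD+enarodustat arrays lay above the DKD mean, and the groups overlapped in their outer arrays. It rose by 0.45 ± 0.10 in DKD+enarodustat against DKD (1.37-fold, adjusted p = 0.0402), with 0.59, 0.31 and 0.45 within slides 1, 2 and 3. The change was 0.30 ± 0.12 for DKD+enarodustat minus Sham (adjusted p = 0.0809, and 0.0322 without DKD+enarodustat 9) and -0.15 ± 0.12 for DKD minus Sham (adjusted p = 0.470). The adjusted p was close to the threshold. The call ended in 13 of the 24 fits that each left out 1 array, those without Sham 4, without DKD 2, 3, 5, 7 or 9 or without DKD+enarodustat 2 to 8 (adjusted p up to 0.0838). It also ended with the row term (0.52, adjusted p = 0.208), with no filter on dim probes (adjusted p = 0.0614), with the 75th percentile over always detected probes (0.0609) and with the Sham arrays out of the fit (0.114).

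Rgs5, a regulator of G-protein signals in pericytes, stood highest with the drug. Its level was -0.89 to 0.11 (median -0.34) in DKD+enarodustat kidneys, -0.99 to -0.29 (median -0.66) in DKD kidneys and -1.24 to -0.72 (median -0.98) in Sham kidneys. Neighbouring groups overlapped in that order. It rose by 0.64 ± 0.15 in DKD+enarodustat against Sham (1.56-fold, adjusted p = 0.00438), with 0.36, 0.86 and 0.71 within the slides. The smaller steps were 0.27 ± 0.13 for DKD+enarodustat minus DKD (adjusted p = 0.457) and 0.37 ± 0.15 for DKD minus Sham (adjusted p = 0.105). With the row term the DKD+enarodustat minus Sham change was 0.43 (adjusted p = 0.282).

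Cspg4, a surface proteoglycan of pericytes, and Gata3, a transcription factor of mesangial cells, rose in DKD. Cspg4 was measured at 0.16 to 0.92 (median 0.53) in DKD+enarodustat kidneys, -0.24 to 1.41 (median 0.58) in DKD kidneys and -0.30 to 0.24 (median -0.02) in Sham kidneys. It rose by 0.59 ± 0.19 in DKD against Sham (adjusted p = 0.0409), with 8 of 9 DKD arrays above the Sham mean and 0.51, 0.63 and 0.64 within slides. The groups overlapped, DKD 9 being the lowest DKD array and DKD 5 the highest. Its change in DKD+enarodustat against Sham was 0.48 ± 0.19 (adjusted p = 0.0891), and it passed with only those 2 groups in the fit (adjusted p = 0.0151). Gata3 was measured at 1.52 to 2.10 (median 1.88) in DKD+enarodustat kidneys, 1.74 to 2.27 (median 1.91) in DKD kidneys and 1.54 to 1.80 (median 1.62) in Sham kidneys. All 9 DKD arrays lay above the Sham mean, and the groups overlapped in their outer arrays. It rose by 0.32 ± 0.10 in DKD against Sham (adjusted p = 0.0335), with 0.39, 0.23 and 0.34 within slides. Collecting duct principal cells also carry Gata3. Of 8 other principal cell markers, 6 rose in DKD, among them Aqp4 by 1.19, Aqp2 by 0.91, Elf5 by 0.85 and Avpr2 by 0.57. Of all genes, 5.47% rose in DKD against Sham. The 8 markers summed to 32.0 to 41.1 in DKD against 19.998 to 27.2 in Sham, in units of the 75th percentile signal, and all 8 were above background on every array. Their part in the Gata3 result was not tested.

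Leaving out 1 array at a time ended the Cspg4 and Gata3 calls in 9 of 24 fits each. For Cspg4 these were the fits without Sham 2, 3, 5 or 6 or without DKD 1, 3, 5, 7 or 8 (adjusted p up to 0.106). For Gata3 they were the fits without Sham 1, 2, 3, 5 or 6 or without DKD 2, 5, 7 or 8 (adjusted p up to 0.0764). The calls of Cdkn1c, Npr3, Rgs5 and Cnn1 remained in all 24 such fits.

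The PDGF receptors and Notch3 lay above their Sham means with the drug and did not pass. Pdgfrb, the PDGF receptor that mural cells need for recruitment, averaged 1.11 ± 0.27 in DKD+enarodustat, 0.81 ± 0.33 in DKD and 0.76 ± 0.19 in Sham kidneys (SD). Its changes were 0.30 ± 0.13 for DKD+enarodustat minus DKD (adjusted p = 0.395) and 0.35 ± 0.15 for DKD+enarodustat minus Sham (adjusted p = 0.110). Pdgfra, the PDGF receptor of fibroblasts and mesangial cells, averaged -0.33 ± 0.33 in DKD+enarodustat, -0.39 ± 0.28 in DKD and -0.64 ± 0.28 in Sham. Notch3, a receptor that maintains mural cells, averaged 1.80 ± 0.28 in DKD+enarodustat, 1.66 ± 0.27 in DKD and 1.50 ± 0.18 in Sham, and its change of 0.31 ± 0.13 for DKD+enarodustat minus Sham passed without DKD+enarodustat 5 (0.39, adjusted p = 0.0276). Of the 4 PDGF ligands, Pdgfc rose in DKD+enarodustat against Sham (0.47 ± 0.14, adjusted p = 0.0220). That is 25.0% of the 4, against 15.5% of all genes. In the other comparisons 0 of 4 passed under limma (1 and 2 at an unadjusted p under 0.05 for DKD minus Sham and DKD+enarodustat minus DKD). All 7 mesangial and pericyte genes had a change above 0 for DKD+enarodustat minus Sham (median 0.31), and 5 of 7 had for DKD+enarodustat minus DKD (median 0.14, and -0.03 within slide 2).

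**Figure D2:**
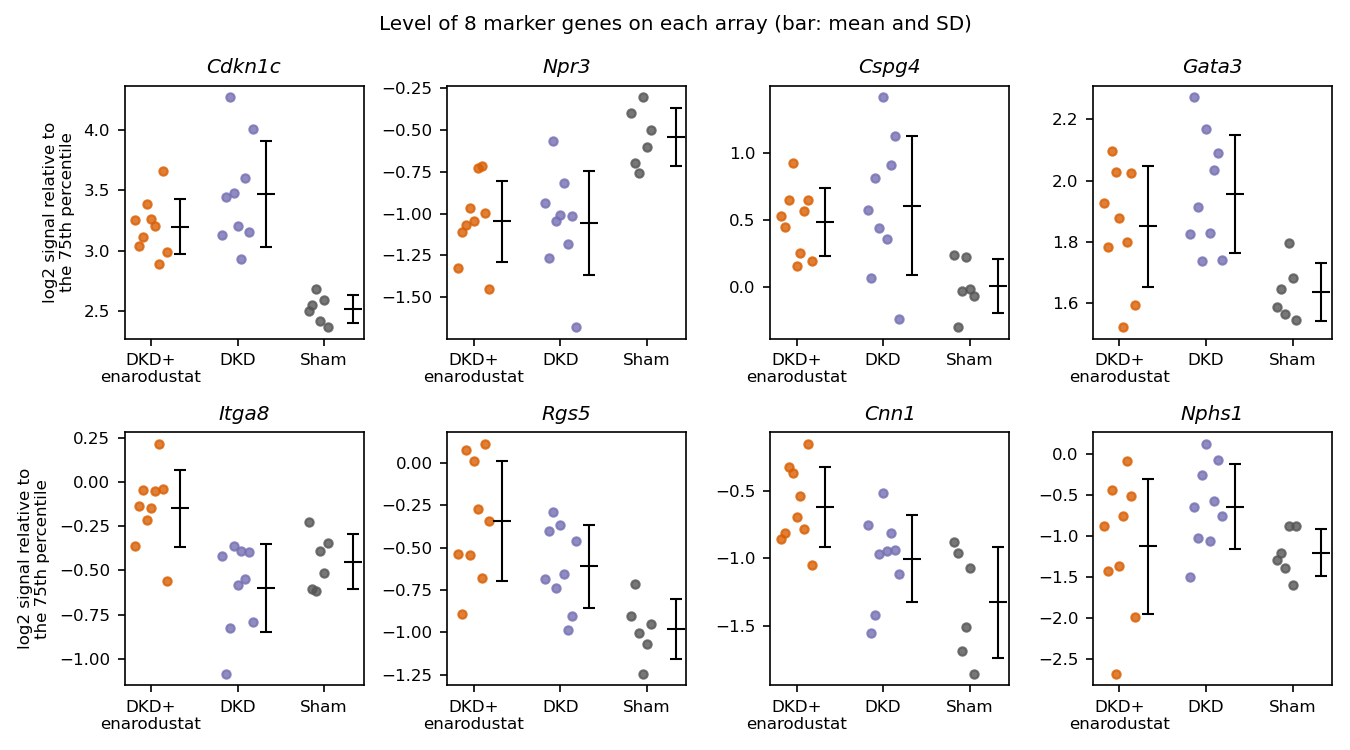
Level of 8 of the genes on each array (points, as the log2 signal over the 75th percentile signal of that array) in the 3 groups, with the mean and SD beside them. Cdkn1c lay above all Sham arrays in both alloxan groups, Npr3 lay lowest in them, and Itga8 was highest with enarodustat (-0.56 to 0.21).

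Of the 7 contractile genes, Cnn1 alone passed, in DKD+enarodustat against Sham (14.3%, against 15.5% of all genes). Cnn1, the smooth muscle protein calponin, was measured at -1.05 to -0.16 (median -0.70) in DKD+enarodustat kidneys, -1.55 to -0.52 (median -0.95) in DKD kidneys and -1.85 to -0.88 (median -1.29) in Sham kidneys. All 9 DKD+enarodustat arrays lay above the Sham mean. It rose by 0.70 ± 0.17 in DKD+enarodustat against Sham (1.63-fold, adjusted p = 0.00711), with 0.26, 1.06 and 0.80 within slides 1, 2 and 3. The row term gave 0.94 and no call (adjusted p = 0.0574). A far dimmer second probe, above background on 15 arrays, gave 0.04, and the mean of both gave 0.37 (adjusted p = 0.127). For DKD+enarodustat minus DKD the change was 0.38 ± 0.15 (adjusted p = 0.335).

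Tagln and Myl9 had their highest medians in DKD+enarodustat and their lowest in DKD, without a call. Tagln, the actin-binding protein transgelin, was measured at 3.07 to 4.30 (median 3.35) in DKD+enarodustat kidneys, 2.70 to 3.47 (median 3.13) in DKD kidneys and 3.02 to 3.64 (median 3.16) in Sham kidneys. Myl9, the regulatory light chain of smooth muscle myosin, was measured at 4.02 to 5.10 (median 4.35) in DKD+enarodustat kidneys, 3.66 to 4.51 (median 3.96) in DKD kidneys and 3.96 to 4.43 (median 4.15) in Sham kidneys. The groups overlapped for both genes. The DKD+enarodustat minus DKD changes were 0.38 ± 0.15 for Tagln (adjusted p = 0.326) and 0.30 ± 0.13 for Myl9 (adjusted p = 0.411), and 8 of 9 arrays lay above the DKD mean for each. Acta2, smooth muscle actin, averaged 2.63 ± 0.20 in DKD+enarodustat, 2.57 ± 0.20 in DKD and 2.74 ± 0.12 in Sham (SD). Its brightest probe gave 0.06 for DKD+enarodustat minus DKD, where its other probes gave 0.32 and 0.31, and its probes also differed in sign for DKD minus Sham (-0.17 against 0.13 and 0.12).

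Myh11, Des and Mylk did not pass either. Myh11, the smooth muscle myosin heavy chain, averaged -1.43 ± 0.28 in DKD+enarodustat, -1.34 ± 0.43 in DKD and -1.55 ± 0.12 in Sham. Its probes differed in sign for DKD minus Sham (0.20 for the probe used, against 0.10 and -0.14). Des, the intermediate filament desmin, averaged -2.68 ± 0.27 in DKD+enarodustat, -2.92 ± 0.22 in DKD and -2.68 ± 0.26 in Sham. Mylk, the kinase that switches myosin on, averaged 2.29 ± 0.24 in DKD+enarodustat, 2.15 ± 0.53 in DKD and 2.40 ± 0.20 in Sham. The Mylk probe used gave -0.25 for DKD minus Sham and -0.11 for DKD+enarodustat minus Sham. Other Mylk probes lay lower, at -0.41 and -0.46 and at -0.33 and -0.49. The contractile genes had a median change of 0.24 for DKD+enarodustat minus DKD, with 6 of 7 above 0, and of -0.11 for DKD minus Sham, with 5 of 7 below 0. Within single slides the DKD minus Sham median ran from -0.21 to 0.13, so its direction was not the same on every slide. Desmin is also known to appear in injured podocytes, and its DKD minus Sham change was -0.24 ± 0.13 (adjusted p = 0.274).

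Among 22 other contractile and pericyte genes tested, 1 passed in DKD against Sham (4.55%, against 11.6% of all genes). That gene was Higd1b, a marker of pericytes, which rose by 0.65 ± 0.10 (adjusted p = 0.00018). In DKD+enarodustat against DKD, Ndufa4l2, a mitochondrial protein induced by HIF, rose by 0.54 ± 0.12 (adjusted p = 0.0319). Cald1, the actin-binding protein caldesmon, rose by 0.30 ± 0.07 (adjusted p = 0.0403), close to the threshold. Over all genes, 0.609% rose in that comparison. Its 127 calls became 20 with row on the slide as a term and 47 with only the 2 groups in the fit. In DKD+enarodustat against Sham 5 of 22 rose, where 8.74% of all genes rose. Among them were Higd1b by 0.99 ± 0.10, the potassium channel subunit Kcnmb1 by 0.62 ± 0.16 and the matrix protein Vtn by 0.53 ± 0.15. Under limma at an adjusted p under 0.05, 0 of 22 fell in any of the 3 comparisons, and 1 was lower at an unadjusted p under 0.05, in DKD+enarodustat against DKD.

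Promoter sequences are shown for 3 of the mural genes whose medians were highest in DKD+enarodustat kidneys. HIF and the muscle factor SRF bind known short motifs. The windows run from 250 bases before to 50 after the gene start, from RefSeq on GRCm38.p6, and 22 of the 29 genes had an entry. Both strands were searched for the HIF core, ACGTG or GCGTG, and for the CArG box that SRF binds. Capitals mark HIF cores in Cnn1 and the CArG box in Myl9, Itga8 holds neither, and CACGC is GCGTG read on the other strand.
Itga8, chr2:12301895-12302194, minus strand: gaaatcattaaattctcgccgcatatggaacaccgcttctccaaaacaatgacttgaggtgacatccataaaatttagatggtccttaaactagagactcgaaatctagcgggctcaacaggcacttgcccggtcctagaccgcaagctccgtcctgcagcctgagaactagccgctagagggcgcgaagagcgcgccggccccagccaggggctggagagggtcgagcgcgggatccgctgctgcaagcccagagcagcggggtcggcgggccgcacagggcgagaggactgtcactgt
Cnn1, chr9:22099003-22099302, plus strand: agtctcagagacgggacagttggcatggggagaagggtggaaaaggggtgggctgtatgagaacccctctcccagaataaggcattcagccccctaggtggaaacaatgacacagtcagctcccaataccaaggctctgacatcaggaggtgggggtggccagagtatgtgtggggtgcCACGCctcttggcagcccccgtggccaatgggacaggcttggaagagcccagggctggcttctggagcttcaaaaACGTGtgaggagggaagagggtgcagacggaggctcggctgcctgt
Myl9, chr2:156775214-156775513, plus strand: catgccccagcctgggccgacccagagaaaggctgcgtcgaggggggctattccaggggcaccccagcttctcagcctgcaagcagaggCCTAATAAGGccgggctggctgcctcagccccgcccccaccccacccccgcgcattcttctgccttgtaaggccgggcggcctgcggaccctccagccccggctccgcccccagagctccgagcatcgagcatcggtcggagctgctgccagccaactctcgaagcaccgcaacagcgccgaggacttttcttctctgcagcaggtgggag
Itga8, the gene that passed in DKD+enarodustat against DKD, has no HIF core in this window. Cnn1 has 2, at positions 180 and 255 of the window. Rgs5, Pdgfra and Notch3 also had an entry and their highest median in DKD+enarodustat kidneys, and are not shown. Rgs5 and Pdgfra hold neither motif, and Notch3 holds 3 HIF cores and no CArG box. HIF cores lay in 9 of the 22 genes with an entry, where 43.8% of all 32851 RefSeq promoters hold at least 1. The core ACGTG also lies within the E-box CACGTG. The CArG box lay in Myl9 alone of the 22, at position 90, and 1.63% of all promoters hold it. A match describes the letters only.

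The class means of DKD+enarodustat and DKD kidneys were set side by side. For each array the class mean was taken as the mean log2 difference from the Sham mean over its genes. The podocyte mean was 0.03 ± 0.17 in DKD+enarodustat and 0.19 ± 0.13 in DKD (SD, n = 9 each), where Sham arrays had an SD of 0.06 (n = 6). The mesangial and pericyte mean was 0.37 ± 0.18 in DKD+enarodustat and 0.23 ± 0.18 in DKD, with an SD of 0.10 in Sham. The contractile mean was 0.15 ± 0.14 in DKD+enarodustat and -0.05 ± 0.19 in DKD, with an SD of 0.09 in Sham. The podocyte mean was thus highest in DKD, and both mural means were highest in DKD+enarodustat. The 30 other podocyte and glomerular filter genes did not share that order, at 0.14 ± 0.12 in DKD+enarodustat and 0.12 ± 0.12 in DKD. The 22 other contractile and pericyte genes had means of 0.23 and 0.13. In the same order, endothelial markers had 0.30 and 0.02 and proximal tubule markers -0.23 and -0.09. Fibroblast and matrix genes had 0.21 and -0.12.

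The podocyte mean minus the mean of the other 14 genes was -0.43 to -0.05 (median -0.27) in DKD+enarodustat, -0.01 to 0.28 (median 0.07) in DKD and -0.17 to 0.09 (median 0.04) in Sham. The DKD+enarodustat and DKD arrays did not overlap, though the nearest arrays lay at -0.05 and -0.01. Each class mean alone overlapped between these groups. Among single genes 0.147% separated them, and how often other sets of genes do was not tested. On slides 1, 2 and 3 the means were -0.21, -0.33 and -0.14 in DKD+enarodustat against 0.17, 0.03 and 0.10 in DKD. The 3 DKD arrays in row 2, the row that holds all DKD+enarodustat arrays, lay at 0.02 to 0.25, and the 6 in row 1 at -0.01 to 0.28. The genes were chosen with earlier results known, so these means are a description and carry no test. Across 14 other settings of the processing, 12 to 15 of the 15 podocyte genes had a change below 0 for DKD+enarodustat minus DKD, and 11 to 12 of the 14 mural genes had a change above 0. Within single slides these counts were 11 to 12 and 8 to 12.

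**Figure D3:**
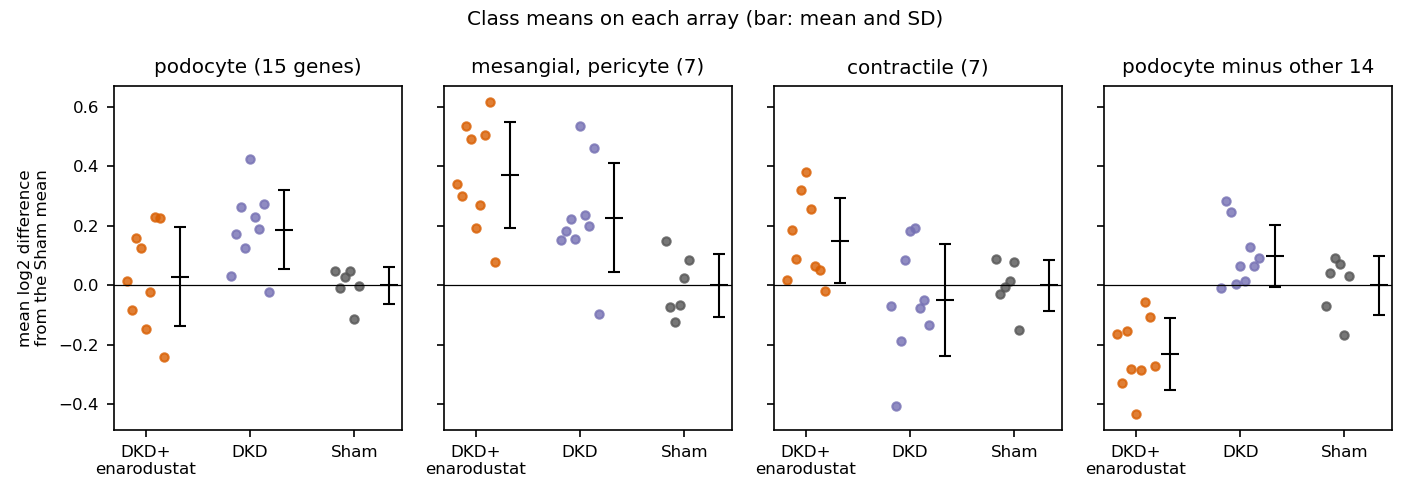
Mean log2 difference from the Sham mean over the genes of each class, on each array (points) with the group mean and SD; the last panel gives the podocyte mean minus the mean of the other 14 genes. In that panel the DKD+enarodustat arrays lie at -0.43 to -0.05 and the DKD arrays at -0.01 to 0.28.

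Markers of other cells moved beside the classes. Of 12 endothelial markers, 6 rose in DKD+enarodustat against DKD, among them Egfl7, Cdh5, Emcn and Plvap by 0.42 to 0.44, and none fell. Of all genes, 0.609% rose in that comparison, and its 127 calls became 20 with row on the slide as a term. In DKD+enarodustat against Sham 7 of the 12 rose, Cdh5, Tek, Plvap and Egfl7 the most, where 8.74% of all genes rose. Tek alone passed in DKD against Sham, a rise (8.33% of the 12, against 11.6% of all genes). The 12 markers summed to 68.6 to 93.8 in DKD+enarodustat, 56.5 to 69.3 in DKD and 57.6 to 66.5 in Sham, and all were above background on every array. Interstitial fibroblast and matrix genes had 0 of 8 passing under limma for DKD+enarodustat minus DKD (4 at an unadjusted p under 0.05, median 0.32), with summed levels of 24.9 to 42.4 in DKD+enarodustat, 16.8 to 41.2 in DKD and 28.3 to 38.2 in Sham. In DKD against Sham, Vim rose by 0.30 and Postn fell by 0.48 (25.0% of the 8 passed, against 11.6% of all genes). In DKD+enarodustat against Sham, Lum and Vim rose (25.0% of the 8 passed, against 15.5% of all genes). Proximal tubule markers summed to 1000.0 to 1279 in DKD+enarodustat, 1150.0 to 1406 in DKD and 1302 to 1510.0 in Sham. Slc22a6 fell by 0.75 and Slc5a12 rose by 0.55 in DKD against Sham. In DKD+enarodustat against Sham, 3 of 10 fell (Slc22a6, Pdzk1 and Slc34a1), where 6.75% of all genes fell, and 9 of the 10 changes were below 0. Of 5 parietal epithelial markers, Cldn1 rose in DKD+enarodustat against Sham by 0.68 ± 0.15, and no other passed. The part of these cells in the results on podocyte and mural genes was not tested.

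The level of many of the genes moved with the brightness of the array. For each gene, deviations from the group means over 24 arrays were set against log2 of the 75th percentile signal, in 29 relations with permutation tests within groups. The 75th percentile is also the divisor of every level, so the axes share it. A gene whose signal did not follow the 75th percentile would get a negative r from the scaling alone. The permutations do not keep this tie, so the p of a negative relation does not show a link beyond the scaling. By Pearson r, 10 genes had a positive and 4 a negative relation that passed after Benjamini-Hochberg adjustment over the 29. By Spearman rho these were 8 and 2, since Ptpro, Magi2, Tagln and Myl9 passed by r only. Notch3 had r = 0.79 and rho = 0.83 (permutation p = 3e-05 and 2e-05, adjusted 0.00058 for both), and r = 0.75 without the 2 arrays farthest from the median, DKD+enarodustat 5 and 7. Plce1 had r = 0.73 and rho = 0.79 (permutation p = 4e-05 for both, adjusted 0.00058), and 0.76 without those arrays. Synpo had r = 0.78 and rho = 0.61 (permutation p = 0.00014 and 0.00394, adjusted 0.00135 and 0.0169), and 0.59 without them.

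Acta2 ran the other way, with r = -0.64 and rho = -0.65 (permutation p = 0.00244 and 0.00148, adjusted 0.0155 and 0.0143), and -0.55 without the 2 arrays. Its sign is the one that the shared divisor favours, so these p-values do not show a link beyond the scaling. Within slides 1, 2 and 3, r was 0.56, 0.76 and 0.77 for Notch3, 0.62, 0.69 and 0.83 for Plce1, 0.01, 0.90 and 0.95 for Synpo and -0.18, -0.36 and -0.62 for Acta2. On slide 1 the Synpo value was near 0. The median r was 0.44 for the podocyte genes, 0.52 for the mesangial and pericyte genes and -0.41 for the contractile genes. Brightness itself overlapped between groups, with 187 to 388 (median 259) in DKD+enarodustat, 221 to 333 (median 238) in DKD and 219 to 277 (median 247) in Sham. With brightness as a covariate the calls of Cdkn1c, Npr3, Cspg4, Gata3, Itga8, Rgs5 and Cnn1 remained, and Synpo passed for DKD minus Sham (0.24, adjusted p = 0.0350). The direction of the class medians for DKD+enarodustat minus DKD was also kept, at -0.16 for podocyte and 0.18 for the 14 mural genes.

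**Figure D4:**
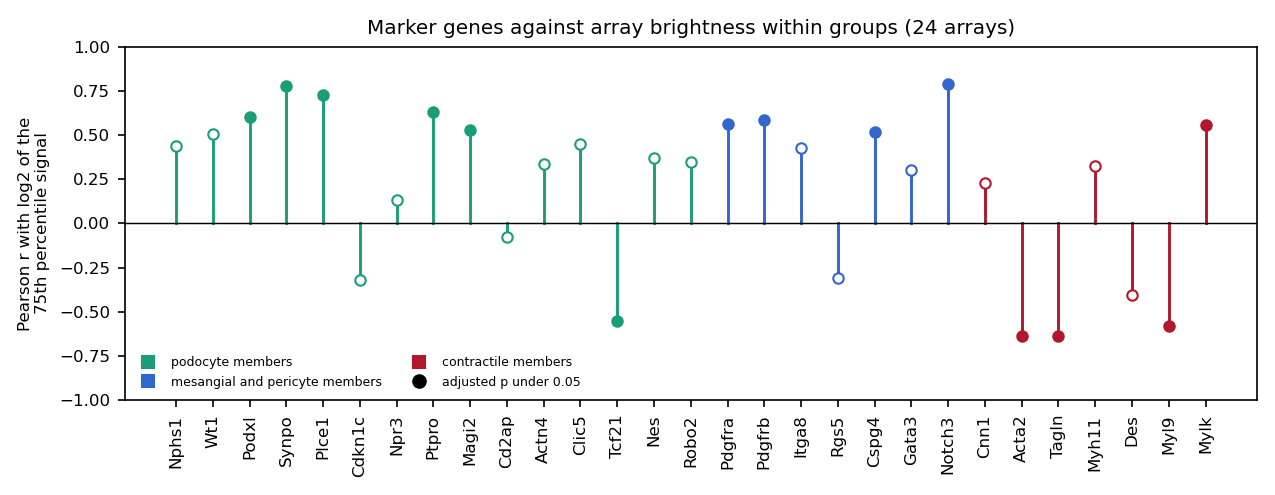
Pearson r of each gene with log2 of the 75th percentile signal of the array, from deviations around the group means over 24 arrays; filled points passed at an adjusted p under 0.05 (permutation within groups). Positive values lead among podocyte and mesangial genes (Notch3 0.79), and Acta2, Tagln, Myl9 and Tcf21 are negative and passed. The 75th percentile is also the divisor of each level, which by itself pulls r below 0.

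Within groups, most podocyte genes varied together, except Cdkn1c and Tcf21, and the contractile genes did not form 1 block. Pearson r between deviations from the group means over 24 arrays had a median of 0.38 over the 105 podocyte pairs, 83 of them above 0. Of the 22 pairs below 0, 20 involved Cdkn1c or Tcf21, each of which was below 0 with 10 of the other 14 podocyte genes. Podocyte and mesangial or pericyte genes had a median r of 0.40, as high as within the podocyte genes. Podocyte and contractile genes had a median r of 0.00, and contractile genes among themselves -0.01. Tagln, Myl9 and Acta2 varied together, with r of 0.84 for Tagln with Myl9, 0.84 for Acta2 with Myl9 and 0.72 for Acta2 with Tagln, and Myh11 stood apart from them (-0.39 with Tagln). The lowest r of all pairs was -0.79, for Synpo with Tagln. These are descriptions over arrays that share scaling and brightness.

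**Figure D5:**
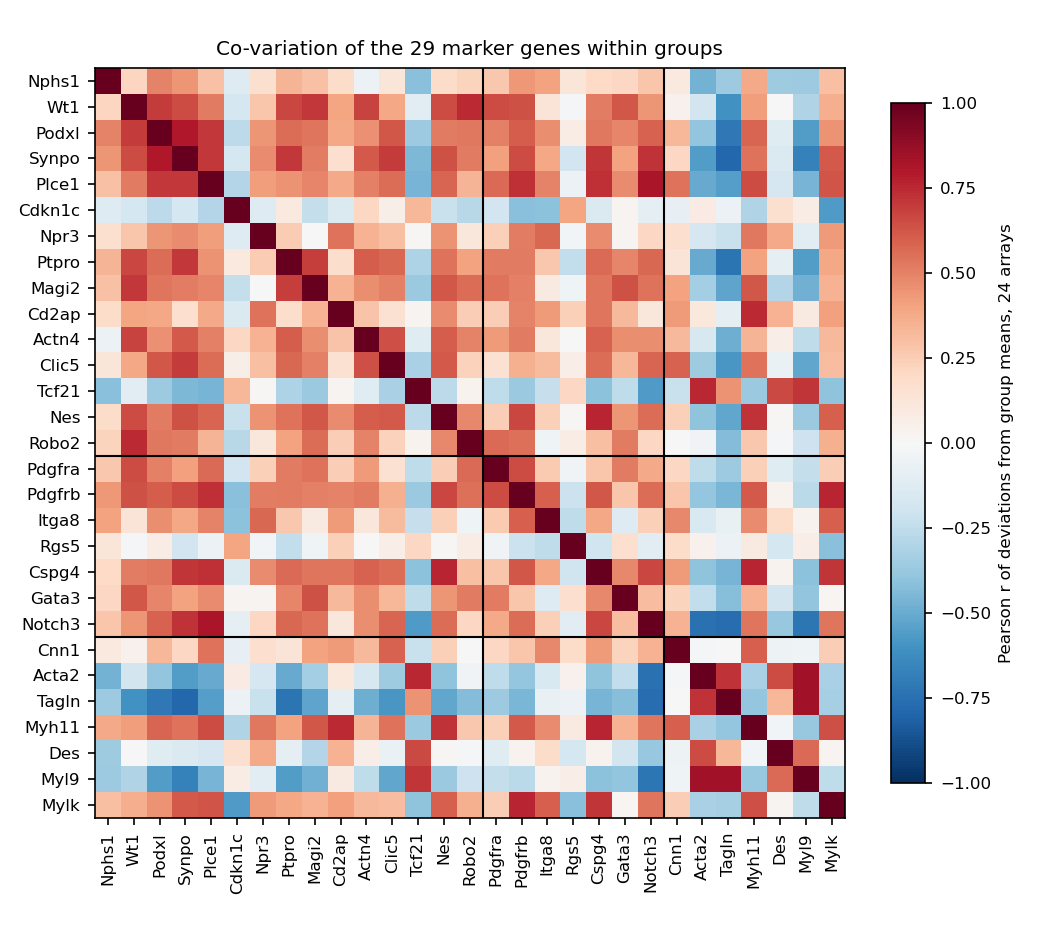
Pearson r between the 29 genes from deviations around the group means over 24 arrays, with lines between the podocyte, mesangial and pericyte, and contractile genes. The block of Acta2, Tagln and Myl9 reaches 0.84, and Synpo with Tagln is lowest at -0.79.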

How the data were processed

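Kidney RNA of 24 mice was measured on single-colour Agilent arrays (design 074809), 1 array per mouse. The scanner files hold spot intensity, background-subtracted and detrended with Agilent Feature Extraction 12.1.1.1 per the file headers. Version 11.5.1.1 of that software and limma stand in the submitters' processing notes without a role. The deposited table holds log2 values of 31409 probes with an unstated scale; normexp (offset 50) on median signals with quantile normalization, computed here, gave 99.96% of the authors' values within 0.05. Here, log2 of the processed intensity minus each array's 75th percentile was used, control spots and 20 outlier-marked values of tested genes were dropped (0 in the 29 genes), and the brightest probe stood for a gene. Names came from probe accessions through RefSeq on GRCm38.p6: 32994 of 56605 probes were named, 23611 were not and 0 had several symbols. Genes above background on at least 6 arrays were tested with limma 3.58.1 in R 4.3.3 (lmFit and eBayes, group as the only term, Benjamini-Hochberg over 17736 genes, two-sided, threshold 0.05), after a check on simulated data.

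Arrays of 1 group correlated at 0.964 to 0.991, no non-control spot was saturated, and precision is limited by how many arrays there are. The 29 genes and all lists were chosen with earlier results of these data known. All 29 genes are named, and of every other list up to 4 passing genes with the largest change, Itgb1 and Myo1e included. Lists are described by counts and medians. Motifs were searched in Python 3.11.15. Alternatives covered background correction, scaling, dim probes, probe choice, slide, row, replicate number, array brightness, single arrays and the deposited values.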

Additional observations from a re-analysis of the deposited data

Results flagged for a closer look

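Dixon's test was applied to each of the 29 genes and the 3 class means in each group, 96 groups of 6 or 9 arrays in all, and marked 3 of them, on 2 arrays. Chance alone marks about 1 in 20 such groups. Synpo had its lowest Sham level in Sham 5, at -0.41, where the other Sham arrays lay at -0.18 to -0.08. The podocyte mean of the same array was -0.11 relative to the Sham mean, against -0.01 to 0.05 on the other Sham arrays. Myl9 had its highest level in DKD+enarodustat 5, at 5.10, where the others of that group lay at 4.02 to 4.53; Tagln was also highest on that array (4.30), and its 75th percentile signal was the lowest of all arrays (187).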

How the results depend on the processing

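The 4 calls among the 29 genes in DKD minus Sham became 2 with normexp on median signals and the 75th percentile, a setting chosen after seeing the data, and 0 within each slide. Leaving out 1 array gave 2 to 5. For DKD+enarodustat minus DKD the 1 call became 0 with the 75th percentile over always detected probes, with no filter on dim probes, with row as a term, with only the 2 groups and within each slide, and leaving out 1 array gave 0 to 1. For DKD+enarodustat minus Sham the 4 calls became 2 with the mean of all probes, 1 with row as a term and 0 within each slide, and leaving out 1 array gave 4 to 5. Over all genes, the 2058 calls of DKD minus Sham became 15, 0 and 9 within slides 1, 2 and 3, and 1471 to 2260 without 1 array. The 127 of DKD+enarodustat minus DKD became 83 without the filter, 20 with row as a term, 47 with only the 2 groups, 279 with brightness as a covariate (chosen after seeing the data), 4, 3 and 0 within slides, and 71 to 128 without 1 array. The 2748 of DKD+enarodustat minus Sham became 889 with row as a term, 36, 30 and 7 within slides, and 1967 to 3040 without 1 array. Where a limma count of the 29 genes was 0, 0 to 9 had an unadjusted p under 0.05, and where one of all genes was 0, 1656 (DKD minus Sham, slide 2) and 544 (DKD+enarodustat minus DKD, slide 3) had. Fits within a slide hold 8 arrays, and the cause of the other differences was not tested.

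With the replicate number as a block, 4, 1 and 4 of the 29 genes passed, and 1461, 66 and 2200 genes in all, in the order of the comparisons above. These values do not settle whether the numbers pair the mice. Same-numbered arrays deviated together (r over 0.1) in 3 of 6, 4 of 9 and 3 of 6 pairs, with r as low as -0.36. Their median r was 0.12, 0.10 and 0.07, against -0.05, 0.02 and -0.03 for arrays of different numbers. An array matched its own number best in 3 of 6, 0 of 9 and 1 of 6 cases. Over all single-gene results and settings, 75 lost a call, 6 gained one and 0 calls changed direction. Cspg4 also lost its DKD minus Sham call with normexp and quantile normalization (adjusted p = 0.0587), the authors' deposited values (0.0517), no filter (0.0548) and only the 2 groups (0.0892), and, like Gata3 (0.0590), with normexp and the 75th percentile (0.0554). Normexp on mean spot signals was not run, since those signals were not among the columns used here.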
